A study of Mus musculus with 15 samples.

Results

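The genes described here are 9 markers of tendon: Tnmd, Fmod, Kera, Chad, Comp, Thbs4, Tnc, Scx and Mkx. They were chosen by name as a measure of tendon in each muscle library, with earlier results of these data known. All 9 had a row in both count tables of the series, out of 42396 gene rows per table. RNA was taken from the tibialis anterior, a muscle of the lower hindlimb, of adult C57BL/6 mice 2 months after AAV6, a viral vector, had been injected into the hindlimb. The vector carried either EGFP, called mock, or the construct called LSMEM2 C-del. The labels do not say what C-del stands for or how many cells took up the vector. Male mice are represented by 4 libraries of each construct, and female mice by 3 mock and 4 C-del. Each sex has its own count table, and a difference of sex cannot be told apart from a difference of table. Every library came from an injected leg, and none from an uninjected one. Nothing states that each library came from a separate animal, so p-values measure the spread between libraries.

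Tendon is a dense tissue of aligned type I collagen made by tenocytes. It joins muscle to bone and meets the muscle fibres at the myotendinous junction. The transcription factor Scleraxis, encoded by Scx, marks tendon progenitors and tenocytes, and Mohawk, encoded by Mkx, is needed for full collagen fibril growth. Tenomodulin, encoded by Tnmd, is a membrane glycoprotein of mature tenocytes. Fibromodulin and keratocan (Fmod, Kera) are small leucine-rich proteoglycans that bind collagen fibrils, and chondroadherin (Chad) is a related leucine-rich protein that binds cells and collagen. Cartilage oligomeric matrix protein (Comp), thrombospondin 4 (Thbs4) and tenascin C (Tnc) are large multi-subunit glycoproteins of the matrix around the fibrils. In RNA of a whole tissue sample, fewer cells of a type and less RNA per cell cannot be told apart.

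The libraries held 14297620 to 17744015 counts in males and 9285145 to 12054871 in females. Levels are given as CPM, a gene's count scaled to a common library total, with library totals adjusted within each table by the trimmed mean of M values (TMM). Lsmem2, the gene delivered in the C-del groups, was at 28.5 to 29.7 CPM in male mock and 481 to 2352 CPM in male C-del libraries, and at 29.8 to 32.6 and 1358 to 2701 CPM in the female groups. The labels name skeletal muscle while their extraction text names heart. The summed level of 6 markers of skeletal muscle fibres, among them the fast myosins Myh4 and Myh1, was 92334 to 130773 CPM. Of 8 cartilage markers, 6 (Col2a1, Matn1, Matn3, Hapln1, Snorc and Cnmd) had a mean below 1 CPM in every group. Some libraries stood apart before any comparison. The summed level of 33 tendon collagens and other matrix genes was 4774 CPM in male mock library 3 and 3485 CPM in male mock library 4, against 2056 to 2148 CPM in the other male mock libraries and 2082 to 2634 CPM in male C-del. In females, 5 leukocyte markers summed to 397 CPM in mock library 2 and 155 CPM in mock library 3, against 28.4 to 59.3 CPM in the other female libraries.

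In the mouse genome build GRCm38 the members lie apart on 9 chromosomes. Tnmd is at chrX:133850980-133865577, Fmod at chr1:134037254-134048277, Kera at chr10:97606879-97613692, Chad at chr11:94565047-94569127 and Comp at chr8:70373558-70382066. Thbs4 is at chr13:92751590-92794818 on the minus strand, Tnc at chr4:63959785-64047015 on the minus strand, and Scx at chr15:76457452-76459458. Scx lies within the span of Bop1 and Chad within that of Acsf2, both on the other strand and with 0 shared exon bases. Tnc shares 176 exon bases with the RNA 8030451A03Rik on the other strand, Mkx shares 201 with a transcript model on its own strand, and Comp overlaps a long non-coding RNA by 1313 bp. The library kit kept strand, but the counting is not stated to have used it, so reads of 8030451A03Rik may be mixed with those of Tnc. Reads of the partner of Mkx may be mixed with those of Mkx in either case, since both lie on the same strand. For Comp, the strand of the partner and any shared exon bases were not available, and its reads may also be mixed.

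The 5 members Tnmd, Fmod, Chad, Thbs4 and Tnc varied together over all 15 libraries while differing in the male comparison. Tnmd passed its test there, the male groups did not overlap for Fmod and Chad, and Thbs4 and Tnc overlapped. After group means were subtracted, Tnc followed the mean of the other 8 genes at a Pearson r of 0.716 over 15 libraries. Over the 8 male libraries alone its r was lower, at 0.489. The sequences just before the starts of these 5 members are shown for this comparison. They are from RefSeq, build GRCm38.p6, read 5′ to 3′ on the gene's strand up to the last base before the gene, with each match to the E-box CANNTG, the letters bound by basic helix-loop-helix factors such as Scleraxis, in capitals. The windows are chrX:133850758-133850979 (Tnmd), chr1:134037004-134037253 (Fmod), chr11:94564797-94565046 (Chad), chr13:92794819-92795068 (Thbs4, minus strand) and chr4:64047016-64047265 (Tnc, minus strand).
Tnmd: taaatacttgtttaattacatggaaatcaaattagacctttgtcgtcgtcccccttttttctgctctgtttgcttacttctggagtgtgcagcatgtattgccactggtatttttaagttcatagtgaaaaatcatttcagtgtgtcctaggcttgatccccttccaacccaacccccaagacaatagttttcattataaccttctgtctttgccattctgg
Fmod: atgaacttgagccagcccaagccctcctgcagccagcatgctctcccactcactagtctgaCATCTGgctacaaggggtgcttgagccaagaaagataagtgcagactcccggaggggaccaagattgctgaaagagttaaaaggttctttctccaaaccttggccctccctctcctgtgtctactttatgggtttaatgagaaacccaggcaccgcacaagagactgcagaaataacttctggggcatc
Chad: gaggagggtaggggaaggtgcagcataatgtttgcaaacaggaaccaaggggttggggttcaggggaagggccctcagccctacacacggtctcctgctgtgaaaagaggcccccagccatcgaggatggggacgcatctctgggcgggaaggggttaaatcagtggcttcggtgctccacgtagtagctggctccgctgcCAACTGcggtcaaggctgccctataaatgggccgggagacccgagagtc
Thbs4: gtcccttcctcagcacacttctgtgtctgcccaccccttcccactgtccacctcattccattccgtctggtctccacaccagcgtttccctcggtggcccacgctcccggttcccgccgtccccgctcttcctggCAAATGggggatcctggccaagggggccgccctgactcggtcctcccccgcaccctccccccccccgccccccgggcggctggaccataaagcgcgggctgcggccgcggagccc
Tnc: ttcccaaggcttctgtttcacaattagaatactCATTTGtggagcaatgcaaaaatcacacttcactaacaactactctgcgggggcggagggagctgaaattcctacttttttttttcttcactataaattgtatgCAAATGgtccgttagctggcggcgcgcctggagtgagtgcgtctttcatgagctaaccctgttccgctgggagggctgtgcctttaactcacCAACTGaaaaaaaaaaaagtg
RefSeq windows were found for 6 of the 9 members, Kera being the other. In the 250 bases before the RefSeq start, CANNTG, which reads the same on both strands, occurred 0 times for Tnmd and Kera, 1 time each for Fmod, Chad and Thbs4, and 3 times for Tnc at its upstream start. At least 1 match was present in 66.2% of 32851 mouse windows of that length. The form CATCTG, searched on both strands, occurred only for Fmod, 189 bases before the start, and in 14.4% of all windows. GCGGGGGCG, a form of the site of EGR1, occurred on either strand only for Tnc among the 6 genes and in 2.57% of all windows, and GCGTGGGCG occurred for none of the 6 and in 0.536% of all windows. TATAAA occurred for Chad, 28 bases before the start, and for Tnc, against 12.4% of all windows. A match is a run of letters and was not tested as a binding site.

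Per kilobase of exon, Thbs4 and Fmod had the highest mean CPM of the 9 genes in every group. In male mock they were at 50.4 ± 8.69 and 47.9 ± 14.6 CPM per kb (SD, n = 4), and the next gene, Chad, was at 8.24 ± 4.01. Every library of Fmod was above every library of the gene ranked next in all 4 groups. Tnmd, Kera, Chad, Comp, Scx and Tnc followed, with means of 0.708 to 8.24 CPM per kb over the groups. Most neighbours in that order overlapped: in male C-del, Tnmd, Kera, Chad, Scx, Comp and Tnc formed an unbroken chain of overlapping neighbours. Mkx was lowest in every group, at 0.132 to 0.286 CPM per kb, and rested on 5 to 24 counts per library. Scx rested on 37 to 100 counts, and Fmod and Thbs4 on at least 549.

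**Figure D1:**
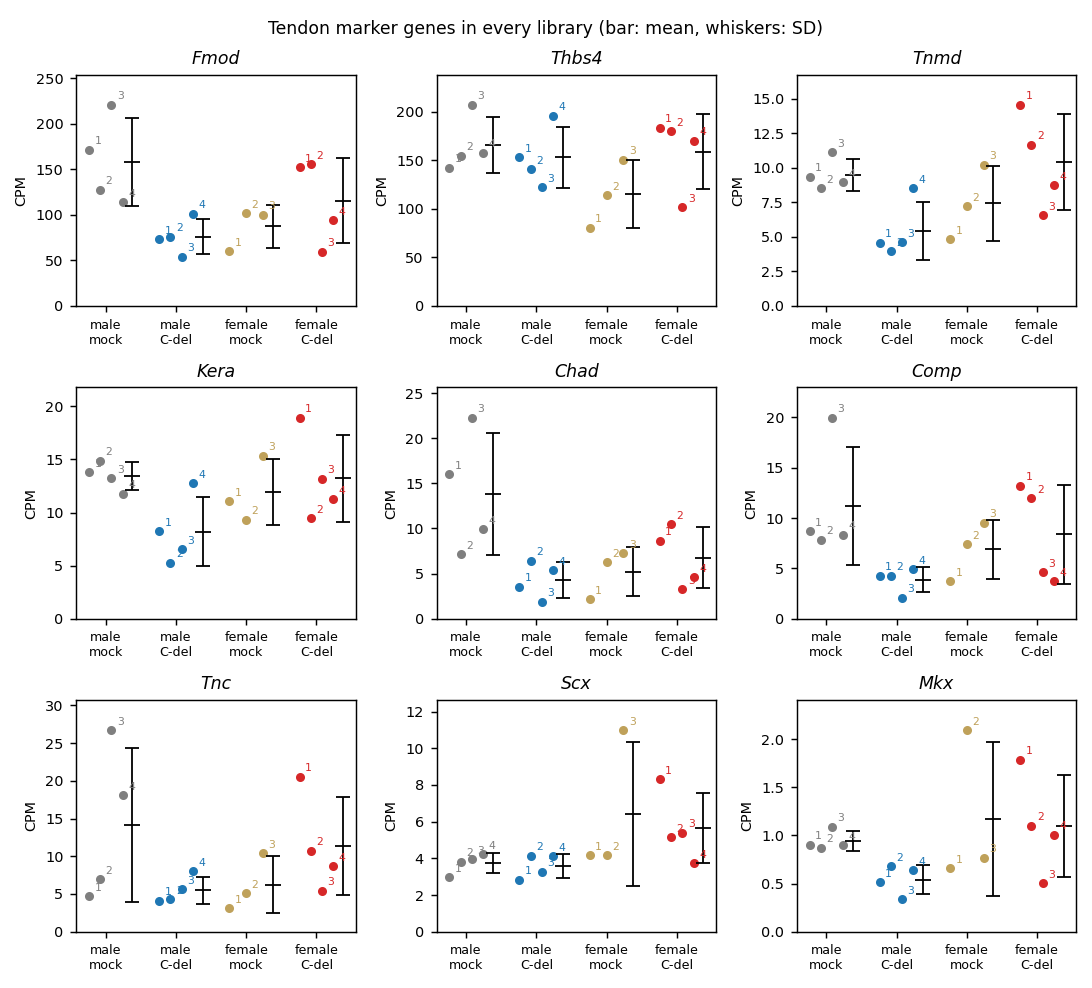
Level in CPM (vertical axes, each starting at 0) of the 9 tendon marker genes in each of 15 libraries, by group. Points are libraries with their number, and bars with whiskers are the group mean and SD; male C-del points lie below all male mock points for Fmod, Chad, Comp and Mkx, and the female groups overlap for all 9 genes.

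In males, tenomodulin was lower with C-del. Tnmd was at 9.36, 8.51, 11.1 and 8.95 CPM in male mock libraries 1 to 4 and at 4.57, 3.96, 4.62 and 8.54 CPM in male C-del libraries 1 to 4. In C-del libraries 1 to 3 it was below all mock libraries, and C-del library 4 reached the lowest mock library. The log2 fold change was -0.80 ± 0.22 (SE), 1.74-fold lower, with a Benjamini-Hochberg adjusted p of 0.0438 in edgeR's quasi-likelihood test over 14543 genes. It was the only 1 of the 9 that passed at 0.05, and 5.37% of all genes tested passed as lower. The call was lost in 10 of 14 alternatives. Over all 14, the log2 fold change stayed between -1.11 and -0.67 and the adjusted p ranged from 0.000174 to 0.233. Leaving out any single male library other than C-del library 4 ended it, with adjusted p of 0.0675 to 0.109.

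The leucine-rich proteins had larger or similar differences with more spread. Fmod was at 171, 128, 221 and 114 CPM in male mock and 73.2, 75.8, 53.8 and 101 CPM in male C-del libraries. All C-del libraries were below all mock libraries, and the log2 fold change was -1.06 ± 0.28 (adjusted p = 0.0676, edgeR). Chad was at 16.01, 7.17, 22.3 and 9.92 CPM in mock and 3.54, 6.45, 1.87 and 5.40 CPM in C-del libraries. These groups also did not overlap, with a log2 fold change of -1.66 ± 0.49 (adjusted p = 0.0875, edgeR), the lowest of the 9. Kera was at 13.8, 14.9, 13.2 and 11.8 CPM in mock and 8.24, 5.26, 6.56 and 12.8 CPM in C-del libraries. C-del library 4 lay within the mock range, and the log2 fold change was -0.71 ± 0.25 (adjusted p = 0.116, edgeR). Without that library Kera passed, at -1.01 (adjusted p = 0.000695, edgeR).

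Among the matrix glycoproteins, the male groups separated for Comp and overlapped for Tnc and Thbs4. Comp was at 8.68, 7.84, 19.96 and 8.36 CPM in male mock and 4.28, 4.27, 2.07 and 4.94 CPM in male C-del libraries. All C-del libraries were below all mock libraries, mock library 3 was far above the other mock libraries, and the log2 fold change was -1.51 ± 0.42 (adjusted p = 0.0683, edgeR). Without mock library 3 the difference was smaller, at -1.08, and passed the test (adjusted p = 0.00919, edgeR). Tnc was at 4.71, 6.97, 26.7 and 18.1 CPM in mock and 4.09, 4.33, 5.62 and 7.99 CPM in C-del libraries. Only mock libraries 3 and 4 were above the C-del range. The log2 fold change was -1.35 ± 0.62 (adjusted p = 0.240, edgeR) and became -0.078 without those 2 libraries. Thbs4, the most abundant, was at 143, 155, 207 and 158 CPM in mock and 153, 141, 122 and 196 CPM in C-del libraries. Its groups overlapped, at -0.11 ± 0.18 (adjusted p = 0.749, edgeR), and without mock library 3 the sign turned, to 0.012.

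Of the transcription factors, Mkx was low throughout, at 0.904, 0.871, 1.09 and 0.902 CPM in male mock and 0.515, 0.679, 0.335 and 0.639 CPM in male C-del libraries. The groups did not overlap, and the log2 fold change was -0.77 ± 0.28 (adjusted p = 0.0915, edgeR). Scx was at 2.97, 3.82, 3.95 and 4.23 CPM in mock and 2.83, 4.13, 3.28 and 4.12 CPM in C-del libraries. These values overlapped closely, with a log2 fold change of -0.050 ± 0.16 (adjusted p = 0.882, edgeR), and its sign turned without mock library 4 or C-del library 1.

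**Figure D2:**
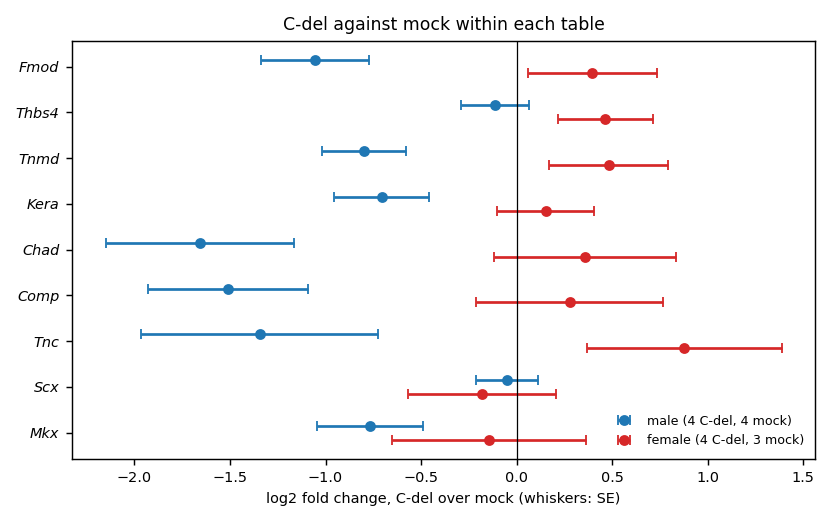
Log2 fold change of C-del over mock (horizontal axis) for each of the 9 genes, with whiskers for the SE, in males (blue) and females (red). All 9 male values lie below 0, from -1.66 for Chad to -0.050 for Scx, while 7 of the 9 female values lie above 0.

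All 9 male log2 fold changes were negative, with a median of -0.80 against -0.0047 over all genes tested. Groups did not overlap, with C-del lower, for 4 of the 9 (Fmod, Chad, Comp and Mkx), against 8.46% of all genes. At an unadjusted p under 0.05, 6 of the 9 were lower in edgeR, against 12.9% of all genes. DESeq2 called 5 of the 9 lower (Tnmd, Fmod, Comp, Kera and Chad), against 4.47% of the genes it tested. Since the 9 were chosen with earlier results of these data known, these counts are descriptions. Mock library 3 was at 2.69 times the mean of the other mock libraries for Tnc, 2.41 times for Comp, 2.02 times for Chad and 1.61 times for Fmod, but 0.980 times for Kera. Summed over 4 bone markers, mock libraries 3 and 4 were at 99.4 and 60.4 CPM, the other mock libraries at 22.1 and 26.9 CPM, and the C-del libraries at 34.7 to 40.6 CPM. Ibsp, which encodes bone sialoprotein, was at 0.710, 0.067, 54.6 and 25.0 CPM in mock and 2.32 to 7.70 CPM in C-del libraries. The 4 adipocyte markers summed to 28.2 CPM in mock library 3, 6.33 to 14.1 CPM in the other mock libraries and 7.33 to 11.5 CPM in C-del, and DESeq2 called 2 of them lower, Adipoq and Lep. The 5 leukocyte markers summed to 101 and 118 CPM in C-del libraries 1 and 2, against 25.7 to 41.8 CPM in the other male libraries. The part of these bone, fat and leukocyte genes in the tendon values was not tested. With mock libraries 3 and 4 left out, 7 of the 9 members were still negative and 1, Comp, passed (-1.07, adjusted p = 0.0367, edgeR), against 2.50% of all genes called lower. In the C-del group, library 4 was at 1.95 times the mean of the other C-del libraries for Tnmd and 1.91 times for Kera.

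Few genes of the wider matrix list passed the test in males. Of 33 tendon collagens and other matrix genes tested, 1 passed as higher, P4ha1, a subunit of collagen prolyl hydroxylase (0.35 ± 0.064, adjusted p = 0.00303, edgeR), and 0 as lower, against 5.8% and 5.37% of all genes. An unadjusted p under 0.05 was reached by 2 with a higher value and by 3 with a lower one, the latter against 12.9% of all genes. DESeq2 called 2 higher and 1 lower, against 5.62% and 4.47% of the genes it tested. Their median log2 fold change was -0.25, and 26 of the 33 were negative. Cilp2, a matrix protein of the cartilage intermediate layer family, was at -1.17 ± 0.33 (adjusted p = 0.0522, edgeR), and Lox, which crosslinks collagen, at -0.41 ± 0.16 (adjusted p = 0.132). Clu, which encodes the secreted chaperone clusterin, was at 0.72 ± 0.24 (adjusted p = 0.116, edgeR) and was called higher by DESeq2. Col1a2, an alpha chain of type I collagen, was at 249, 247, 843 and 522 CPM in mock and 275, 270, 238 and 324 CPM in C-del libraries. As with Tnc, only mock libraries 3 and 4 were above the C-del range.

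Of 26 transcription factors and signals of tendon tested in males, 3 rose and 3 fell, against 5.8% and 5.37% of all genes. Egr1, a zinc finger factor that responds to mechanical load and acts on tendon collagen genes, was at 81.4, 80.0, 61.3 and 72.3 CPM in mock and 20.2, 27.7, 11.9 and 10.7 CPM in C-del libraries. It fell by 2.06 ± 0.31 on the log2 scale (adjusted p = 0.0103, edgeR), and the groups were far apart. Tgfbr2, a receptor for TGF-beta, was at -0.44 ± 0.045 (adjusted p = 2.9e-05), and Eya1, a transcriptional coactivator, at -0.66 ± 0.080 (adjusted p = 0.000135). The 3 that rose were Sox9 at 1.07 ± 0.16 (adjusted p = 0.000639), Smad3, which carries TGF-beta signals, at 0.54 ± 0.085 (adjusted p = 0.00238), and Tgif1, which represses them, at 0.71 ± 0.14 (adjusted p = 0.00464). Sox9, a factor of cartilage and of tendon attachment sites, was at 1.77 to 2.67 CPM in mock and 4.47 to 5.38 CPM in C-del libraries. Without mock libraries 3 and 4, which leaves 2 mock libraries, Egr1 was at -2.19 ± 0.40 (adjusted p = 0.0665, edgeR) and Tgif1 at 0.58 ± 0.17 (adjusted p = 0.0655), and neither passed. Of 17 genes of the myotendinous junction, 3 rose (Vcl 0.32, Xirp2 0.30 and Tln1 0.19) and 0 fell, again against 5.8% and 5.37% of all genes. Of the 17, 12 were positive and 5 negative. The negative ones included the collagens Col6a6 (-0.48, adjusted p = 0.142, edgeR) and Col22a1 (-0.43, 0.389). At an unadjusted p under 0.05 in edgeR, 5 were higher and 1 lower. Without male mock libraries 3 and 4 the adjusted p was 0.0745 for Vcl and 0.333 for Tln1, and Tln1 was lost in 9 of 14 alternatives. Beside these, all 3 smooth muscle markers fell in males: Acta2 (-0.33, adjusted p = 0.00816, edgeR), Tagln (-0.27, 0.0225) and Myh11 (-0.27, 0.0204). Their calls were lost in 2, 7 and 6 of 14 alternatives. Of 6 fibre markers, 2 rose, Myh1 (0.39, adjusted p = 0.0114, edgeR) and Acta1 (0.20, 0.0185), and 0 fell, against 5.8% and 5.37% of all genes. The other 4 fibre markers were negative, among them Myh4 at -0.33 ± 0.11 (adjusted p = 0.096, edgeR). Of 7 markers of fibro-adipogenic cells, 1 rose, Ly6a (0.37, adjusted p = 0.00145, edgeR), and 0 fell. DESeq2 also called Mfap5 of that list higher. The part of these markers in the tendon values was not tested.

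In females, none of the 9 members passed the test. Tnmd was at 4.82, 7.23 and 10.2 CPM in female mock libraries 1 to 3 and at 14.6, 11.7, 6.58 and 8.75 CPM in female C-del libraries 1 to 4. The groups overlapped, C-del libraries 1 and 2 being above all mock libraries, and the log2 fold change was 0.48 ± 0.31 (adjusted p = 0.574, edgeR). Over 14220 genes, 0.0141% passed in either direction, so the test called almost nothing in this table. For the 9 members, the count was also 0 at an unadjusted p under 0.05, against 11.9% of all genes, and 0 in DESeq2, against 2.99%. The groups overlapped for all 9, while they did not for 10.3% of all genes.

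Fmod was at 60.2, 102 and 100.1 CPM in female mock and 152, 156, 59.5 and 94.2 CPM in female C-del libraries. Chad was at 2.19, 6.27 and 7.24 CPM in mock and 8.66, 10.46, 3.29 and 4.63 CPM in C-del libraries. Kera was at 11.1, 9.32 and 15.4 CPM in mock and 18.9, 9.45, 13.2 and 11.3 CPM in C-del libraries. For all 3, C-del library 1 was above every mock library while at least 1 C-del library lay within the mock range or below it. Their log2 fold changes were 0.40 ± 0.34, 0.36 ± 0.48 and 0.15 ± 0.25, with adjusted p of 0.668, 0.791 and 0.837 (edgeR).

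Comp was at 3.73, 7.41 and 9.55 CPM in female mock and 13.2, 11.98, 4.64 and 3.72 CPM in female C-del libraries. Thbs4 was at 80.6, 114 and 151 CPM in mock and 184, 180.1, 102 and 170.4 CPM in C-del libraries. Tnc was at 3.12, 5.10 and 10.4 CPM in mock and 20.5, 10.7, 5.42 and 8.70 CPM in C-del libraries. C-del libraries 1 and 2 were above all mock libraries for each of these, joined for Thbs4 by C-del library 4. The log2 fold changes were 0.28 ± 0.49, 0.46 ± 0.25 and 0.88 ± 0.51, with adjusted p of 0.845, 0.511 and 0.541 (edgeR).

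Scx was at 4.16, 4.18 and 10.97 CPM in female mock and 8.31, 5.14, 5.40 and 3.72 CPM in female C-del libraries, so a single mock library was highest. Mkx was at 0.658, 2.09 and 0.768 CPM in mock and 1.79, 1.10, 0.506 and 1.01 CPM in C-del libraries, again with a single mock library highest, but not the same one. Their log2 fold changes were -0.18 ± 0.39 and -0.14 ± 0.51, with adjusted p of 0.875 and 0.928 (edgeR). Both turned positive without their highest mock library, to 0.43 for Scx and 0.61 for Mkx. The female median over the 9 was 0.36, against -0.015 over all genes tested.

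Among all genes of the female table, 11.9% reached an unadjusted p under 0.05 in either direction. DESeq2 called 2.99% of the genes it tested, and the groups did not overlap for 10.3% of all genes. Of the wider lists in females, 0 of 33 collagens and matrix genes passed in edgeR, against 0.0141% of all genes. An unadjusted p under 0.05 was reached by 5 with a higher and 1 with a lower value, and DESeq2 called 2 higher. Cilp, related to Cilp2, was at 32.9 to 53.8 CPM in mock and 76.6 to 144 CPM in C-del libraries (log2 fold change 1.20 ± 0.24, adjusted p = 0.145 in edgeR and 0.000314 in DESeq2). Aspn, which encodes asporin, another leucine-rich proteoglycan, was at 24.6 to 27.5 CPM in mock and 29.7 to 53.7 CPM in C-del libraries (0.74 ± 0.19, adjusted p = 0.186 in edgeR and 0.0239 in DESeq2). Neither pair of groups overlapped. Col1a2 was at 91.8, 188 and 254 CPM in mock and 446, 283, 133 and 201 CPM in C-del libraries, and these groups overlapped. Of 24 transcription factors and signals, 0 passed in edgeR, 6 were higher at an unadjusted p under 0.05, and 2, Egr1 and Ccn2, were called higher by DESeq2. Egr1 was at 17.8, 25.7 and 27.5 CPM in mock and 123, 99.4, 30.8 and 71.8 CPM in C-del libraries, without overlap (1.77 ± 0.42, adjusted p = 0.167 in edgeR and 0.000556 in DESeq2). Ccn2, a matricellular growth factor also responsive to load, was at 1.23 ± 0.27 (adjusted p = 0.155, edgeR). Of 17 genes of the myotendinous junction, 0 passed in edgeR, and an unadjusted p under 0.05 was reached by 5 with a higher and 1 with a lower value. DESeq2 called 1 of them higher, Xirp2 (0.60 ± 0.16 and adjusted p = 0.181 in edgeR). Markers of other cells also differed between the female groups, although none passed in edgeR. All 4 leukocyte markers tested were lower at an unadjusted p under 0.05, and DESeq2 called 3 of them lower. The leukocyte sums were high in mock libraries 2 and 3, while mock library 1, at 45.6 CPM, lay within the C-del range of 28.4 to 59.3 CPM. All 3 endothelial markers were higher at an unadjusted p under 0.05 (Cdh5 0.42, Kdr 0.31 and Pecam1 0.27), with sums of 215 to 251 CPM in mock and 283 to 307 CPM in C-del libraries, and DESeq2 called Cdh5 higher. All 7 fibro-adipogenic markers had negative log2 fold changes, with a median of -0.22, and 1 reached an unadjusted p under 0.05. The 4 bone markers summed to 17.9 to 34.5 CPM in mock and 33.5 to 55.6 CPM in C-del libraries. Among them Ibsp was at 2.00 ± 0.90 (adjusted p = 0.427, edgeR) and Alpl, an alkaline phosphatase, at 0.55 ± 0.16 (adjusted p = 0.210). The part of these cells in the tendon values was not tested.

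The difference between the female and the male effect was tested in a joint fit of all 15 libraries. None of the 9 members passed in edgeR or in DESeq2, against 0.354% of 15272 genes in edgeR and 3.93% in DESeq2. At an unadjusted p under 0.05, 6 of the 9 had a higher effect in females, against 7.09% of all genes. Fmod differed by 1.45 ± 0.47 on the log2 scale (adjusted p = 0.141, edgeR), Tnmd by 1.28 ± 0.41 (adjusted p = 0.123) and Chad by 2.01 ± 0.73 (adjusted p = 0.183). Comp differed by 1.78 ± 0.68 (adjusted p = 0.200), Tnc by 2.22 ± 0.87 (adjusted p = 0.220) and Kera by 0.86 ± 0.38 (adjusted p = 0.265). The values were 0.57 ± 0.32 for Thbs4, 0.63 ± 0.57 for Mkx and -0.13 ± 0.44 for Scx. The mean of the male and female effects passed for 0 of the 9, against 4.41% of all genes, with 0 at an unadjusted p under 0.05 (19.7% of all genes) and 0 in DESeq2 (6.8% of all genes). Egr1 was the only gene of the tendon factor and signal list whose difference passed, at 3.82 ± 0.58 (adjusted p = 0.0225, edgeR). It did not pass without male mock libraries 3 and 4, at 3.97 (adjusted p = 0.0735, edgeR), or without female mock libraries 2 and 3, at 4.24 (adjusted p = 0.139). The latter leaves 1 female mock library, which is assumed to vary like the other groups.

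**Figure D3:**
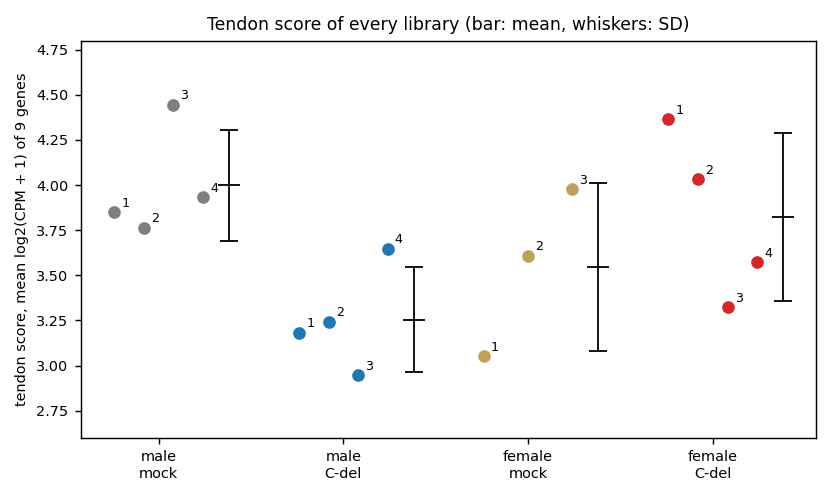
Tendon score of each of 15 libraries, the mean over the 9 genes of log2(CPM + 1) (vertical axis, not starting at 0), by group. Points are libraries with their number and bars with whiskers are the mean and SD; all male C-del libraries, up to 3.65, lie below all male mock libraries, from 3.76, and the female groups overlap.

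A tendon score, the mean over the 9 genes of log2(CPM + 1), gave 1 value per library. It was 3.85, 3.76, 4.45 and 3.93 in male mock, 3.18, 3.24, 2.95 and 3.65 in male C-del, 3.05, 3.61 and 3.98 in female mock and 4.37, 4.03, 3.32 and 3.57 in female C-del libraries. The male groups, at 3.998 ± 0.307 and 3.25 ± 0.291 (SD, n = 4 each), did not overlap. The female groups, at 3.55 ± 0.465 (n = 3) and 3.82 ± 0.466 (n = 4), did. The male difference was -0.74, and -0.87 to -0.59 over the alternatives. The female difference was 0.28, and 0.031 to 0.49 over the alternatives, being smallest without female mock library 1. No test was made on the score, since its genes were chosen with results of these data known. The range of the score within a group was 0.683 and 0.701 in the male groups, slightly smaller than the size of the male difference. It was 0.923 and 1.04 in the female groups, larger than the female difference.

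The members varied together from library to library. After the group mean of log2(CPM + 1) was subtracted, all 36 pairs of members had a Pearson r above 0 over the 15 libraries, with a median of 0.579. The median was 0.503 over the 8 male and 0.709 over the 7 female libraries. Points share their library and its scaling, and these r are descriptions. By Pearson r, Tnmd followed the mean of the other 8 genes most closely over the 15 libraries (r = 0.894, Spearman rho = 0.854). Comp (0.886), Thbs4 (0.879), Fmod (0.855) and Chad (0.775) came next. By rho, Comp (0.896), Fmod (0.875) and Thbs4 (0.857) were above Tnmd. In males alone Tnmd was at r = 0.712 (rho = 0.357, n = 8). In females alone Tnmd reached r = 0.993, and its closest single partner was Tnc (r = 0.977, n = 7). Thbs4, whose male groups overlapped, followed the other 8 at r = 0.939 over the male libraries. The factors were looser, at 0.577 for Scx and 0.531 for Mkx, and Kera was loosest, at 0.356 (rho = 0.232).

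**Figure D4:**
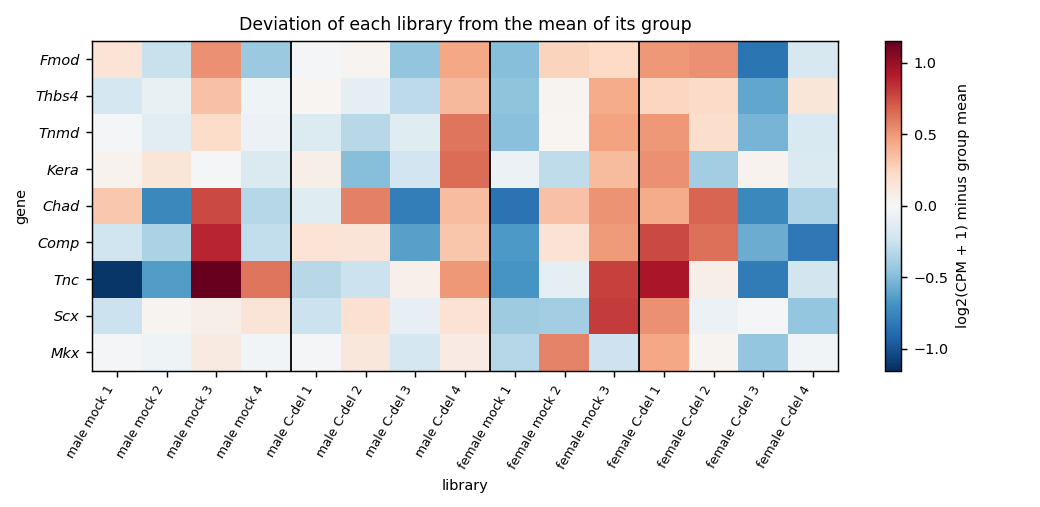
Deviation of log2(CPM + 1) from the group mean (colour scale, red above and blue below) for the 9 genes (rows) in the 15 libraries (columns, black lines between groups). Male mock 3 and female C-del 1 are red for most genes and female C-del 3 is blue for most, and Kera has the lowest r to the mean of the other 8 genes, 0.356.

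Single libraries showed the shared pattern. Female C-del library 1 was above the mean of its other group members for all 9 genes, from 1.22 times for Thbs4 to 2.48 times for Tnc. Female mock library 1 was below the mean of its other group members for all 9 genes, from 0.897 times for Kera to 0.324 times for Chad. Male C-del library 4 was above the others of its group for all 9, from 1.21 times for Scx to 1.95 times for Tnmd. The depth of these libraries, at 10960716, 9375057 and 17744015 counts, lay within or at the end of the range of their own table.

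Among 12822 other named genes with a mean of at least 1 CPM, predicted gene models left out, the 10 most like the tendon score over the 15 libraries were Twist1, Cilp2, Serpinf1, Cnn3, Itm2c, Sparc, Tmem252, Col1a2, C1qtnf6 and Ecrg4, with r of 0.963 to 0.893. An r above 0.9 was reached by 8 of them, or 0.0624%. Twist1, a basic helix-loop-helix factor of mesenchymal cells, followed the score at low levels, 0.928 to 2.66 CPM. Sparc, a collagen-binding glycoprotein, ranged from 157 to 669 CPM. In females the closest were Col1a2 (r = 0.991), Col1a1 (0.991) and Col11a1 (0.989), and the 10 also held Col12a1 (0.987), a collagen of the fibril surface, Ugdh, Rab29, Tmem252, Twist1, Cilp2 and Serpinf1. In males, the closest genes included Arpin, Ptpru, Casq2, Sfr1, Zfp85, Upf3a, Zfp36l1, Cyb5a and Ddah1 (r of 0.959 to 0.940), and none of these was in the collagen and matrix list. An r above 0.9 over the 8 male libraries was reached by 0.295% of 12554 such genes. As a list, the 33 collagen and matrix genes had a median r with the score of 0.646 in males and 0.723 in females, against -0.0046 and 0.012 over all genes outside the 9. Lists of other cell types also had positive medians, in males 0.677 for 3 Schwann cell markers, 0.624 for 3 adipocyte markers and 0.595 for 3 bone markers. In females the 3 bone markers had a median of 0.947, above that of the collagen and matrix list. Other female medians were 0.547 for 5 leukocyte, 0.526 for 3 Schwann cell, 0.504 for 3 adipocyte and 0.423 for 7 fibro-adipogenic markers. Those of 3 endothelial and 3 smooth muscle markers were negative, at -0.418 and -0.182, and the 1 cartilage marker was at -0.0073. The median of the transcription factor and signal list was -0.089 in males and 0.23 in females, and that of the 6 fibre markers was -0.16 and -0.081. Of the 10 genes of the 15-library ranking, 1 passed in males, Ecrg4, a secreted peptide precursor, at -1.64 ± 0.41 (adjusted p = 0.0238, edgeR), and its call was lost in 6 of 14 alternatives, among them leaving out mock library 4 or C-del library 1, 2 or 3. None of the 10 passed in females. Among the genes named from the male ranking, only Zfp36l1 passed in males, at -0.65 ± 0.062 (adjusted p = 1.6e-05, edgeR). It kept its call in 14 of 14 alternatives. The female value of Zfp36l1 was -0.20 ± 0.16 (adjusted p = 0.640, edgeR).

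**Figure D5:**
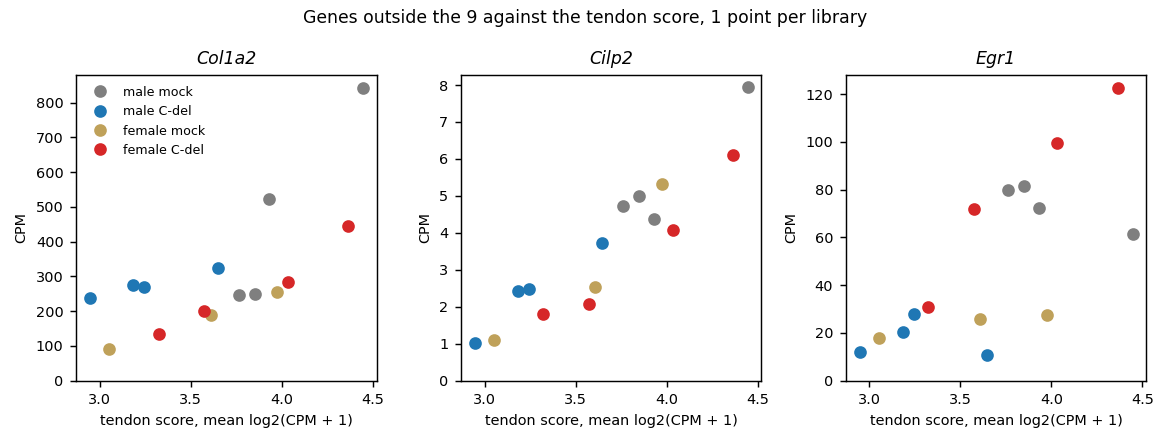
Level in CPM (vertical axes, starting at 0) of Col1a2, Cilp2 and Egr1 against the tendon score (horizontal axes), 1 point per library, coloured by group. Col1a2 runs from 91.8 to 843 CPM and follows the score within groups (r = 0.901), as does Cilp2 (r = 0.958) from 1.004 to 7.94 CPM, while Egr1 separates male mock (61.3 to 81.4 CPM) from male C-del (10.7 to 27.7 CPM).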

How the data were processed

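RNA-seq of 15 tibialis anterior libraries was read from 2 tables, male and female, of estimated counts per gene, which the authors deposited. The submitters' processing notes name featureCounts 2.0.0 and the build GRCm38.p6. The aligner, strand setting and counting options were not given in the sources used here. Between 14.6% and 17.3% of the values per library were not whole (tolerance 0.001), so counts were rounded before testing. Female columns were matched to samples by title; male columns give the group and a number only, and library numbers are those of the columns.

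Within each table, edgeR 4.0.16 (R 4.3.3; robust quasi-likelihood test, TMM, filterByExpr with a minimum count of 10, Benjamini-Hochberg over all genes) compared C-del with mock, and a fit of all 4 groups gave the female minus male and the mean effect; all 9 genes passed the filter in each fit. Alternatives were DESeq2 1.42.0, other scalings, no filter, a joint fit, left-out libraries and a replicate block. Exon lengths and positions came from GENCODE M21, promoter windows from RefSeq. The test was tried on simulated counts in which all genes had the same dispersion, which does not cover the differing spreads of the 9 genes. Pairs of libraries of 1 group differed by at least 2.48 chi-square units per gene, so none was counted as a copy. Precision of a level is limited by its count; total counts per library ranged from 9285145 to 17744015.

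The members and the 13 gene lists (133 genes, all matched by symbol) were chosen with earlier results of these data known. Named were the 9 members and the 10 genes most like the score over 15, 8 and 7 libraries (mean of at least 1 CPM). Of each list, those passing within a table and up to 4 others by smallest p were named. An item of the male ranking is not reported here.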

Additional observations from a re-analysis of the deposited data

Results flagged for a closer look

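Each of the 9 genes, and the tendon score, was checked in each group of 4 libraries, on the log2(CPM + 1) scale, for a highest or lowest library whose gap to the nearest other, divided by the range of the group, exceeded Dixon's critical value for 4 samples. Of 27 groups of gene values and 3 of the score, 3 exceeded it, all of single genes, and chance alone gives about 1 in 20. Comp in male mock library 3, at 19.96 CPM against 7.84 to 8.68 CPM in the other mock libraries, had a ratio of 0.894. Mkx in the same library, at 1.09 CPM against 0.871 to 0.904 CPM, had a ratio of 0.842. Thbs4 in female C-del library 3, at 102 CPM against 170.4 to 184 CPM, had a ratio of 0.872.

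Egr1 had effects of opposite sign in the 2 tables, -2.06 in males and 1.77 in females on the log2 scale. Their difference was 3.82 (adjusted p = 0.0225 in edgeR's test of the difference), and C-del was below all mock libraries in 4 of 4 male libraries and above all mock libraries in 4 of 4 female libraries. Over the alternatives the difference ranged from 3.82 to 4.24, with adjusted p from 1e-07 to 0.139.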

How the results depend on the processing

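Over the alternatives, 104 of 126 member values in males kept their direction and their side of the threshold, 10 lost a call, 7 gained one and 5 changed sign. In females 116 of 126 kept both and 10 changed sign, and so did 53 of 54 for the female minus male effect and 50 of 54 for the mean effect. With any 1 library left out, signs turned in males for Thbs4 (-0.26 to 0.012, positive without mock library 3) and Scx (-0.15 to 0.049, positive without mock library 4 or C-del library 1). In females they turned for Comp (-0.032 to 0.57) and Cilp2 (-0.17 to 0.91), both negative without mock library 1 or C-del library 1, for Kera (-0.076 to 0.37, negative without mock library 2 or C-del library 1), for Mkx (-0.49 to 0.61, positive without mock library 2 or C-del library 3) and for Scx (-0.43 to 0.43, positive without mock library 3). Without male mock libraries 3 and 4, signs turned for Scx (0.090), Thbs4 (0.041), Col1a2 (0.16) and Ibsp (3.41) in males and for Tnc in the mean effect (0.41). Without female mock libraries 2 and 3, which leaves 1 female mock library assumed to vary like the other groups, they turned for Scx (0.45) and Mkx (0.73) in females, for Scx in the female minus male effect (0.49), and for Tnmd (0.15), Scx (0.19) and Tnc (0.26) in the mean effect. The cause of each was not tested. Genes passing in males numbered 1624, 380 in the fit of all 15 libraries, 767 without mock libraries 3 and 4, and 1100 to 1526 without any 1 library. In females 2 passed, 5 with upper quartile scaling, 16 without the filter, 512 in DESeq2, 777 in the fit of all 15 libraries, 4 without mock libraries 2 and 3, and 1 to 1050 without any 1 library (1050 without mock library 1). For the female minus male effect 54 became 666 in DESeq2 and 6 without male mock libraries 3 and 4, and for the mean effect 673 became 1083 and 218. With the female replicate number as a block, 2 genes and 0 members passed and Scx turned to 0.066. Same-numbered female libraries had correlations of deviations of -0.134, -0.0079 and -0.041, and differently numbered ones of -0.207 to 0.225. With so few libraries, these values cannot tell whether a number marks a shared animal. Depth limits Mkx most, at 5 to 24 counts per library.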
